A study of Bos taurus with 12 samples.

Results

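The vascular endothelial growth factor (VEGF) family was followed in the bovine corpus luteum through 8 genes: the ligands VEGFA, VEGFB and VEGFC, the receptor tyrosine kinases KDR (VEGF receptor 2), FLT1 (VEGF receptor 1) and FLT4 (VEGF receptor 3), and the co-receptors NRP1 and NRP2. They were chosen by name, as the 8 rows with these symbols among the 27270 genes listed for each cow. Whole luteal tissue was sequenced from 12 mixed breed cows in the mid-luteal phase (day 10), after synchronization of their cycles. Control cows (n = 4) received saline, and the other cows an intramuscular dose of prostaglandin F2α (PGF2α), the hormone that starts luteal regression, with the ovary removed 4 h (n = 4) or 12 h (n = 4) later. The labels give saline but no collection time for the control cows. Each cow gave 1 library and is the replicate.

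The corpus luteum is among the most densely vascularised tissues of the body, and its capillaries grow under VEGF made largely by the steroidogenic luteal cells. VEGFA binds KDR, which carries most of its growth and permeability signals in endothelial cells, and FLT1, which binds it more tightly but signals weakly and also exists as a soluble decoy. VEGFB binds FLT1, VEGFC binds FLT4 of lymphatic vessels and also KDR, and the neuropilins hold ligand beside the receptors and serve separately as semaphorin receptors.

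In the assembly ARS-UCD1.2, VEGFA lies on chromosome 23 (17281915 to 17297193), VEGFB on chromosome 29 (42539450 to 42542594) and VEGFC on chromosome 27 (8017950 to 8103703). KDR lies on chromosome 6 (70564927 to 70612683), FLT1 on chromosome 12 (31624125 to 31829369) and FLT4 on chromosome 7 (496572 to 537888). NRP1 is on chromosome 13 (19635324 to 19782189) and NRP2 on chromosome 2 (94028625 to 94145404).

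Levels are given in TPM, a share of all transcripts that is scaled to transcript length so that genes can be compared with each other. Changes are log2 fold changes (log2 change), with their standard error (SE), of counts scaled by the trimmed mean of M values (TMM) method and tested with edgeR, and a gene is said to rise or fall where its adjusted p was under 0.05. Total expected counts per library were 10263310 to 22600213. Mean transcript length, with each gene weighted by its TPM, was 1413 to 1577 bases at 12 h and 1628 to 1728 bases in controls, and the median change of all genes at 12 h was 0.01 in TMM-scaled counts but -0.25 in log2(TPM + 1), so falls at 12 h read larger in TPM. Steroidogenic markers were abundant in every library of this luteal tissue, with 14847 to 48102 TPM over 9 genes. Macrophage markers rose at 12 h (6 of 10, none fell), as did neutrophil markers (4 of 6, none fell). Of all tested genes, 23.6% rose at 12 h. The neutrophil markers that rose were CSF3R, S100A12, S100A8 and S100A9. In whole tissue, fewer cells of a type and less RNA per cell cannot be told apart.

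All 8 genes passed the count minimum. At 4 h VEGFA, KDR and FLT1 fell and none of the 8 rose, where 14.2% of the 14481 genes tested were called (8.65% rose, 5.59% fell). At 12 h VEGFB rose and 6 fell, leaving only FLT4 without a call, where 48.9% of tested genes were called (23.6% rose, 25.3% fell). From 4 h to 12 h VEGFB rose and VEGFA, FLT1, NRP1 and NRP2 fell, beside 46.7% of all genes called (22.5% rose, 24.3% fell). In TPM the cows of both groups did not overlap for 3 of the 8 genes at 4 h (19.0% of tested genes), for all 8 at 12 h (44.0%) and for 5 from 4 h to 12 h (38.9%). The median log2 change of the 8 genes was -0.33 at 4 h, -0.98 at 12 h and -0.84 from 4 h to 12 h, and that of all tested genes was -0.03, 0.01 and 0.02. Both comparisons with control share the same 4 control cows.

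**Figure D1:**
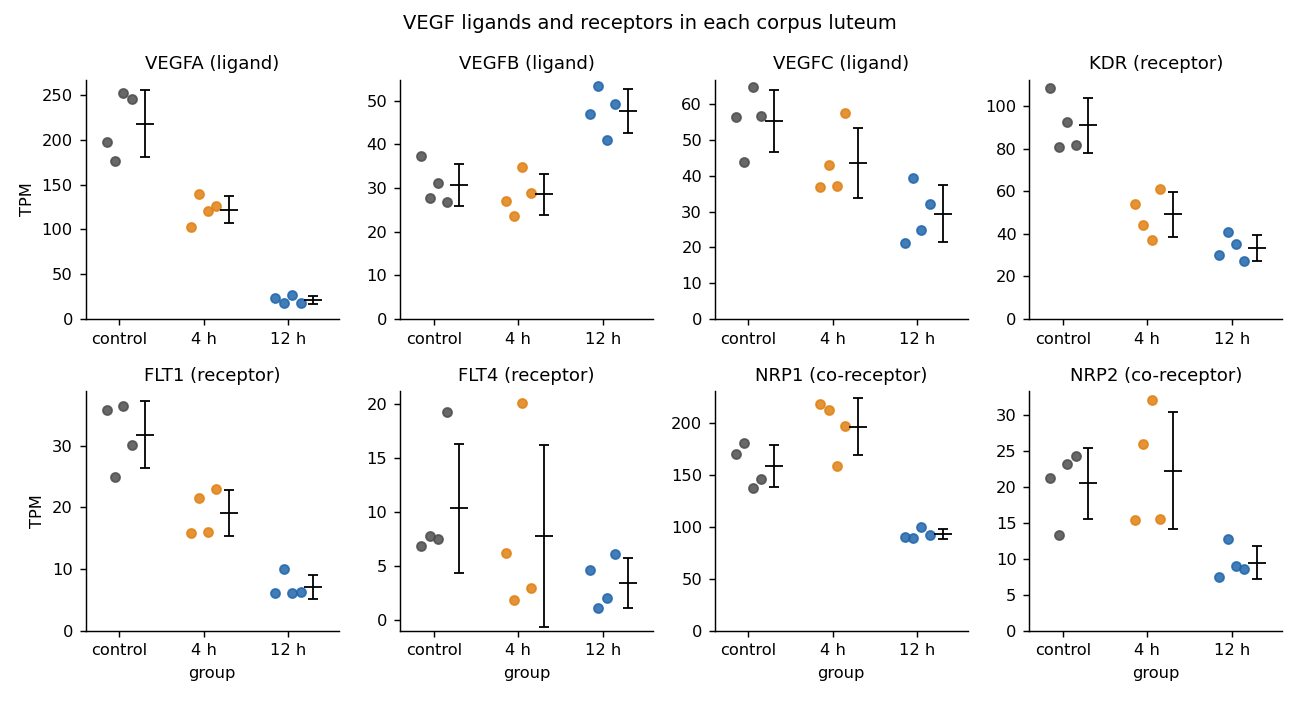
TPM of each of the 8 genes (vertical axes, linear) in control, 4 h and 12 h corpora lutea. Points are cows and bars are the mean with SD (n = 4); VEGFA falls from 176 to 252 TPM in controls to 17.6 to 27.2 TPM at 12 h, whereas VEGFB at 12 h lies above every control cow.

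VEGFA, the main growth factor for luteal capillaries, was the most abundant of the 8 transcripts by its mean in control cows and had fallen furthest by 12 h. It stood at 198, 176, 252 and 245 TPM in the 4 control cows, at 103, 139, 120 and 126 TPM at 4 h, and at 23.5, 18.45, 27.2 and 17.6 TPM at 12 h. The 3 groups did not overlap at all, and the highest 12 h cow was far under the lowest 4 h cow. The log2 change was -0.81 (SE 0.18, adjusted p = 0.0125) at 4 h and -2.99 (SE 0.20, adjusted p = 2.31e-06) at 12 h, a 7.92-fold lower level. From 4 h to 12 h it was -2.17 (SE 0.19, adjusted p = 1.33e-05). Only 76 of the 14481 tested genes had a lower log2 change than VEGFA at 12 h. The call at 4 h was lost when cow6455 and cow7514 were both left out (-0.79, adjusted p = 0.0595). Of 9 steroidogenic markers, 2 fell at 4 h (HSD3B1 and PTGFR), where 5.59% of all genes fell. At 12 h 6 fell (CYP11A1, FDX1, HSD3B1, LHCGR, PTGFR and STAR), where 25.3% of all genes fell. None of the 9 rose against control. Their summed level went from between 31063 and 48102 TPM in controls to between 14847 and 27184 TPM at 12 h. HSD3B1, the progesterone-forming dehydrogenase, had a log2 change of -3.15 (SE 0.25, adjusted p = 5.56e-06) at 12 h. OXT, the oxytocin gene of large luteal cells and the most abundant of the 9 at 12 h, went the other way: it was at 11337 ± 3365 TPM in controls, 10225 ± 1171 TPM at 4 h and 14311 ± 4124 TPM at 12 h. It rose from 4 h to 12 h (0.79, SE 0.27, adjusted p = 0.0294), a call lost without cow4291, cow6455, cow6456, cow5266 or cow7475 in turn (adjusted p from 0.0571 to 0.102). Its value against control at 12 h was 0.67 (SE 0.27, adjusted p = 0.0570), called without cow7367 (0.92, adjusted p = 0.0145) or cow6314 (0.90, adjusted p = 0.00660). The part of luteal cell number in the fall of VEGFA was not tested.

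VEGFB, a ligand of FLT1 linked in other tissues to fatty acid uptake and vessel survival, went the other way. Control cows had 37.2, 27.7, 31.1 and 26.7 TPM and 4 h cows 26.95, 23.7, 34.9 and 28.9 TPM. At 12 h its levels were 46.8, 53.3, 41.0 and 49.2 TPM, above every control and 4 h cow. It rose by a log2 change of 0.95 (SE 0.15, adjusted p = 2.36e-04) from control to 12 h, a 1.93-fold higher level, and by 1.0 (SE 0.15, adjusted p = 1.95e-04) from 4 h to 12 h. At 4 h the value was -0.05 (SE 0.15, adjusted p = 0.852). In TPM, the scale on which most genes read lower at 12 h, the mean was still 1.55 times that of controls.

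VEGFC, the growth factor of lymphatic vessels, declined more slowly. Its level was 56.3, 43.8, 64.7 and 56.6 TPM in controls, 36.8, 43.0, 37.2 and 57.5 TPM at 4 h, and 21.3, 39.4, 24.9 and 32.0 TPM at 12 h. Control and 12 h cows did not overlap, and the 4 h cows overlapped with both. The fall passed the test at 12 h (-0.62, SE 0.18, adjusted p = 0.0113) and not at 4 h (-0.32, SE 0.17, adjusted p = 0.253). Between 4 h and 12 h the change of -0.30 (SE 0.18) had an adjusted p of 0.170.

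These opposite changes altered the mix of ligand transcripts. VEGFA made up 71.5% ± 2.83 (SD, n = 4 here and below) of the summed TPM of the 3 ligands in controls, 62.8% ± 3.49 at 4 h and 22.3% ± 6.09 at 12 h. The share of VEGFB went from 10.3% ± 2.13 to 14.9% ± 2.91 and then to 48.2% ± 3.05, and that of VEGFC from 18.2% ± 0.928 to 22.4% ± 3.34 and 29.5% ± 5.49. The sum itself was 304 ± 44.4 TPM in controls, 194 ± 20.2 TPM at 4 h and 98.7 ± 8.86 TPM at 12 h. VEGFB was thus the leading ligand transcript in all 4 cows at 12 h and VEGFA in all 8 others. The shares were not tested separately, since they restate the levels above.

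**Figure D2:**
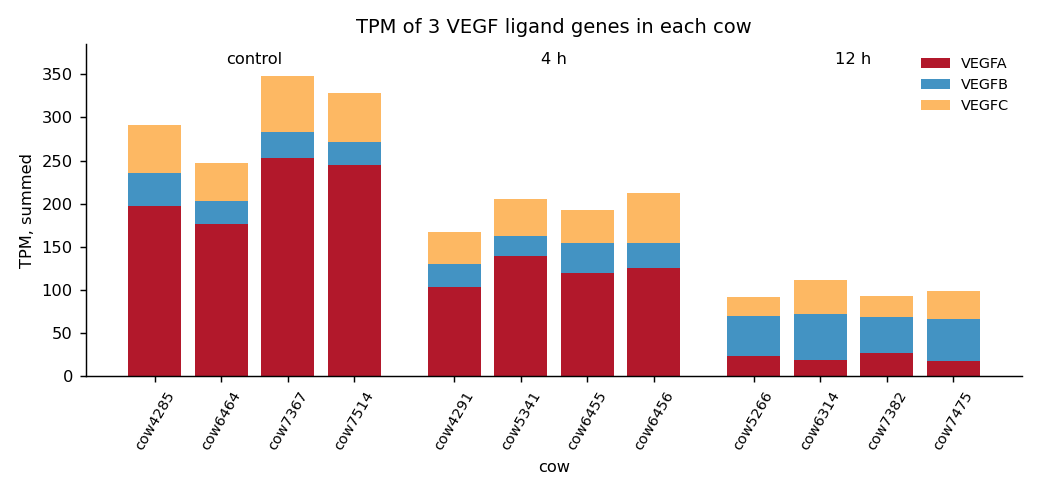
Stacked TPM (linear axis) of VEGFA, VEGFB and VEGFC in each of the 12 cows, grouped as control, 4 h and 12 h. The summed level is 247 to 348 TPM in controls and 91.7 to 111 TPM at 12 h, where VEGFB is the tallest band.

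KDR, the principal signalling receptor on capillary endothelium, fell early. It was at 108, 80.9, 92.4 and 81.8 TPM in controls, at 54.1, 44.0, 37.3 and 61.2 TPM at 4 h, and at 30.2, 40.7, 35.4 and 27.2 TPM at 12 h. All treated cows lay below all controls, while 4 h and 12 h cows overlapped. The log2 change was -0.86 (SE 0.14, adjusted p = 0.00205) at 4 h and -1.14 (SE 0.14, adjusted p = 6.21e-05) at 12 h. From 4 h to 12 h it was -0.28 (SE 0.14, adjusted p = 0.117). That last value was called without cow6455 (-0.37, adjusted p = 0.0454) and turned to 0.28 (adjusted p = 0.140) once an offset removed the trend of each library with transcript length. KDR has the longest transcript of the 8 genes, 8898 bases.

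FLT1, the tighter-binding receptor, fell further between 4 h and 12 h. Its levels were 35.7, 24.9, 36.5 and 30.1 TPM in controls, 15.8, 21.5, 16.1 and 23.0 TPM at 4 h, and 6.17, 10.06, 6.10 and 6.29 TPM at 12 h. No group overlapped with another. The log2 changes were -0.62 (SE 0.15, adjusted p = 0.0170) at 4 h, -1.64 (SE 0.15, adjusted p = 1.22e-05) at 12 h and -1.02 (SE 0.15, adjusted p = 2.32e-04) from 4 h to 12 h. The call at 4 h was lost without control cow7367 (-0.51, adjusted p = 0.0510) and without cow6455 and cow7514 (-0.66, adjusted p = 0.0557).

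**Figure D3:**
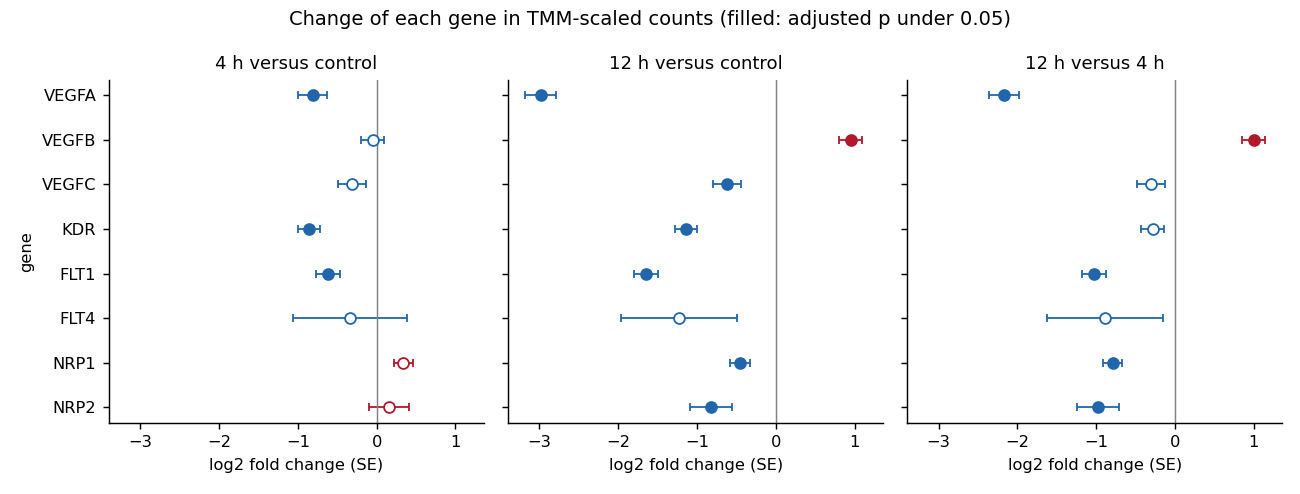
Log2 fold change (horizontal axis) of each gene in TMM-scaled counts for the 3 comparisons, with bars for 1 SE and filled symbols where the edgeR adjusted p was under 0.05. VEGFB is the only filled point to the right of 0, at 0.95 and 1.0, and FLT4 has the widest bars, with an SE of 0.72 to 0.74.

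Ligand and receptor transcripts were then set against each other within each cow, on the log2 TPM scale, with exact two-sided permutation tests whose smallest possible p for 4 cows against 4 is 0.0286, and which were adjusted over 15 tests. VEGFA over KDR was 1.83 to 3.0 in controls, 1.90 to 3.22 at 4 h and 0.454 to 0.780 at 12 h as a plain TPM ratio. The mean log2 ratio (± SD over 4 cows) was 1.26 ± 0.32 in controls, 1.33 ± 0.40 at 4 h and -0.63 ± 0.36 at 12 h. It differed by -1.88 between 12 h and control and by -1.96 between 12 h and 4 h (exact permutation p = 0.0286, adjusted p = 0.0429 for both), and by 0.07 between 4 h and control (exact permutation p = 0.686). FLT1 over KDR was 0.308 to 0.395 in controls, 0.292 to 0.488 at 4 h and 0.172 to 0.247 at 12 h. Its log2 ratio was lower by 0.72 at 12 h than in controls (difference -0.72) and differed by -0.88 from that at 4 h (exact permutation p = 0.0286, adjusted p = 0.0429 for both). The listed mean length of FLT1, which scales its TPM, was 5111 bases in controls and 5913 bases at 12 h. In TMM-scaled counts the log2 changes at 12 h were -1.64 for FLT1 and -1.14 for KDR. The part of the listed length in this ratio was not tested. The log2 ratio of NRP1 to NRP2 was 2.98 ± 0.56, 3.20 ± 0.69 and 3.32 ± 0.36 in the 3 groups, which overlapped in every comparison (exact permutation p from 0.371 to 0.771).

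KDR and FLT1 are transcribed mainly by endothelial cells, so both were also set against 17 endothelial markers measured in the same cow. The mean log2 CPM of the markers (counts as a share of the library, with TMM scaling and no length scaling) was 5.54 to 6.16 in controls, 5.87 to 6.36 at 4 h and 5.96 to 6.75 at 12 h, with overlap between all groups and no marker at 0 in any cow. Their summed level was 772 to 1206 TPM in controls, 879 to 1276 TPM at 4 h and 781 to 1486 TPM at 12 h. At 4 h 2 of the 17 rose (PECAM1 and TEK) and EMCN fell, where 14.2% of all genes were called. At 12 h 6 rose (CLDN5, CLEC14A, ECSCR, PLVAP, SOX17 and VWF) and MMRN2 fell, where 48.9% of all genes were called. The median change over the 17 at 12 h was 0.29. Relative to the markers, KDR was at 3.15 ± 0.15 log2 CPM (± SD over 4 cows) in controls, 2.01 ± 0.08 at 4 h and 1.56 ± 0.30 at 12 h. The differences were -1.14 at 4 h, -1.58 at 12 h and -0.44 from 4 h to 12 h, and the groups did not overlap (exact permutation p = 0.0286, adjusted p = 0.0429 each). With the median of the markers in place of their mean the last of these was -0.04 (adjusted p = 0.771 in the exact permutation test). FLT1 was at 0.81 ± 0.27, -0.07 ± 0.24 and -1.27 ± 0.17 on the same scale. It differed by -0.88 at 4 h, -2.08 at 12 h and -1.20 from 4 h to 12 h, again with no overlap (exact permutation p = 0.0286, adjusted p = 0.0429 each). Against the mean of these markers, both receptor transcripts were thus lower at 4 h and 12 h than in controls, as they were in the tissue as a whole. KDR has a transcript of 8898 bases, and the trend of each library with transcript length was not removed from these differences. The part of transcript length or of cell number in them was not tested.

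**Figure D4:**
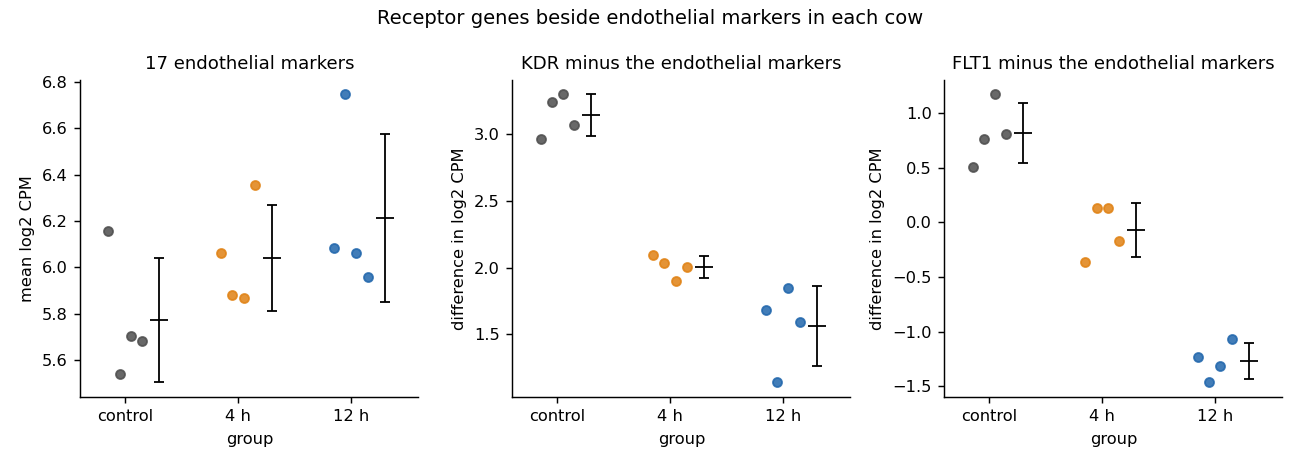
Mean log2 CPM of the 17 endothelial markers, and log2 CPM of KDR and of FLT1 minus that mean, in each cow by group; points are cows and bars the mean with SD (n = 4). The marker mean overlaps between groups, whereas KDR minus the markers runs from 2.97 to 3.30 in controls and from 1.14 to 1.84 at 12 h.

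FLT4, the VEGFC receptor of lymphatic endothelium, varied more between cows than between groups. It was at 6.83, 7.75, 7.51 and 19.3 TPM in controls, at 6.24, 1.82, 20.1 and 2.93 TPM at 4 h, and at 4.62, 1.11, 2.0 and 6.11 TPM at 12 h. The high values were those of control cow7514 and 4 h cow6455, and all 12 h cows were below all controls in TPM but not in TMM-scaled CPM. The log2 change was -0.34 (SE 0.72, adjusted p = 0.799) at 4 h, -1.23 (SE 0.74, adjusted p = 0.189) at 12 h and -0.89 (SE 0.74, adjusted p = 0.340) from 4 h to 12 h, so no change passed the test, and none had an unadjusted p under 0.05 in this fit. No adjusted p reached the threshold in the alternatives either, the lowest being 0.0563 at 12 h. Without cow6455 the last of these turned to 0.27. The same 2 cows had the highest mean of the lymphatic markers, with a log2 CPM over 6 genes of 5.38 in cow7514 and 5.71 in cow6455 against 1.66 to 4.64 in the others. CCL21, the chemokine of lymphatic vessels, was at 301 TPM in cow7514 and 717 TPM in cow6455, but between 0.43 and 146 TPM in the rest. MMRN1 was at 8.56 and 16.2 TPM in these cows and at 0.03 to 5.0 TPM elsewhere. RELN was at 4.22 and 3.32 TPM, against 0.23 to 2.17 TPM in the rest. PROX1, the transcription factor that defines lymphatic identity, was at 2.03 and 2.65 TPM there, at 0.18 to 1.43 TPM in 9 others and listed at 0 in cow6314, the cow with the lowest FLT4. The other 2 of the 6 markers, LYVE1 and PDPN, were not highest in these cows: LYVE1 was at 64.6 TPM in cow7514 and 39.1 TPM in cow6455, within the 14.4 to 72.5 TPM of the rest. PDPN was at 138 TPM in cow7514 and 120.5 TPM in cow6455, the lowest of the 4 h cows, where the rest had 114 to 340 TPM. The summed lymphatic markers spanned 182 to 518 TPM in controls, 314 to 899 TPM at 4 h and 188 to 396 TPM at 12 h. None of the 6 was called at 4 h (14.2% of all genes called). At 12 h PDPN rose and LYVE1 fell (48.9% of all genes called). How much lymphatic vessel each sample held was not measured, and its part in the FLT4 values was not tested.

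**Figure D5:**
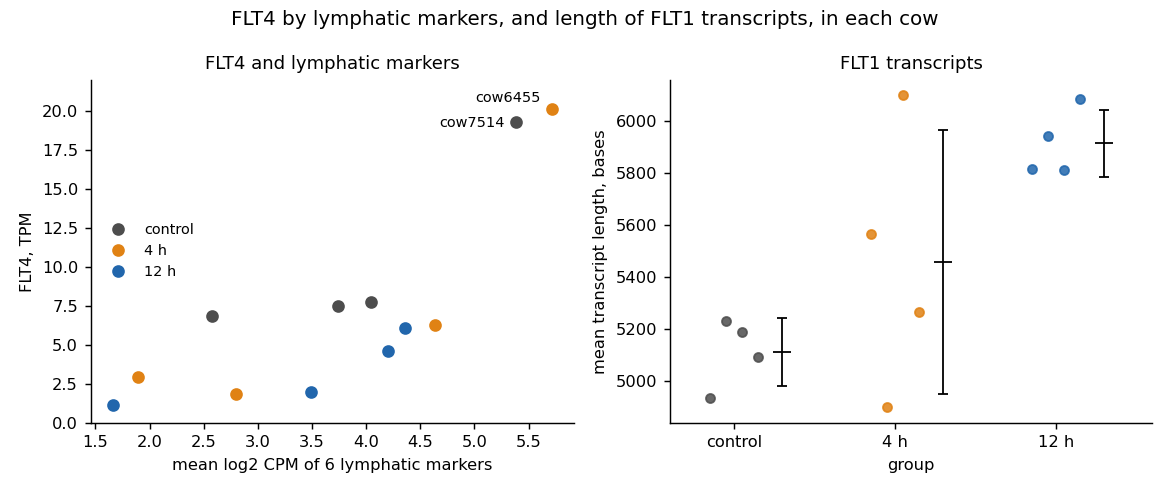
Left, FLT4 in TPM against the mean log2 CPM of 6 lymphatic markers in the 12 cows, where cow7514 and cow6455 stand at the upper right with 19.3 and 20.1 TPM. Right, abundance-weighted mean transcript length of FLT1 in bases (axis not from 0) by group, with points for cows and bars for the mean with SD (n = 4): 4933 to 5230 bases in controls and 5811 to 6084 bases at 12 h.

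NRP1, the co-receptor that binds VEGFA together with KDR, was high before it fell. Its levels were 170, 181, 138 and 147 TPM in controls, 218, 213, 158 and 197 TPM at 4 h, and 90.6, 88.9, 100.1 and 92.3 TPM at 12 h. The 12 h cows lay below all others, whereas control and 4 h cows overlapped through cow6455. The value at 4 h was 0.34 (SE 0.12, adjusted p = 0.0884), which passed the threshold in DESeq2 (adjusted p = 0.0287). NRP1 fell from 4 h to 12 h (-0.79, SE 0.12, adjusted p = 3.21e-04) and was lower at 12 h than in controls (-0.45, SE 0.12, adjusted p = 0.00917). The comparison of 12 h with control was not called with the length offset (-0.16, adjusted p = 0.363). It was the most abundant of the 8 transcripts in every 4 h and every 12 h cow.

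NRP2, the co-receptor favoured by VEGFC and FLT4, was at 21.2, 13.3, 23.2 and 24.3 TPM in controls and at 15.5, 26.0, 32.1 and 15.6 TPM at 4 h. At 12 h it was at 7.50, 12.8, 9.03 and 8.54 TPM, below every other cow in TPM, though overlapping with controls in TMM-scaled CPM. It fell from 4 h to 12 h (-0.98, SE 0.26, adjusted p = 0.00914) and against control (-0.82, SE 0.26, adjusted p = 0.0214), with a value of 0.16 (SE 0.26, adjusted p = 0.729) at 4 h. The fall against control was not called without cow7367 (adjusted p = 0.0549), cow7514 (adjusted p = 0.0690) or cow5266 (adjusted p = 0.0548). Its highest level, 32.1 TPM, was in cow6455, which also had the highest FLT4.

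The order of the 8 transcripts therefore changed. In controls it was VEGFA, NRP1, KDR, VEGFC, FLT1, VEGFB, NRP2 and FLT4 by mean TPM, with overlap between VEGFA and NRP1, between FLT1 and VEGFB, and between NRP2 and FLT4. At 4 h NRP1 stood above VEGFA without overlap, followed by KDR, VEGFC, VEGFB, NRP2, FLT1 and FLT4, where KDR overlapped with VEGFC and each of the last 4 with the next. At 12 h the order was NRP1, VEGFB, KDR, VEGFC, VEGFA, NRP2, FLT1 and FLT4. There KDR, VEGFC and VEGFA overlapped each with the next, as did NRP2, FLT1 and FLT4. The summed TPM of the 3 receptors was 133 ± 15.4 (± SD over 4 cows) in controls, 76.0 ± 8.28 at 4 h and 44.0 ± 5.50 at 12 h, of which KDR was 68.3%, 64.4% and 75.5%.

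VEGFA, VEGFB, FLT1 and NRP2 have more than 1 transcript in the table, and their listed length is a mean weighted by the estimated abundance of each transcript. That of FLT1 was 4933 to 5230 bases in controls, 4899 to 6098 bases at 4 h and 5811 to 6084 bases at 12 h. Its mean was 5111 ± 132 bases in controls and 5913 ± 130 bases at 12 h (SD, n = 4 each), a difference of 802 bases with no overlap (exact permutation p = 0.0286, adjusted p = 0.114 over 12 tests). For VEGFA the mean was 2623 ± 13.1 bases in controls and 2663 ± 31.9 bases at 12 h (exact permutation p = 0.0286, adjusted p = 0.114). Neither passed the threshold after adjustment, and 12.2% of the 7015 tested genes with several transcripts were longer without overlap at 12 h. Lengths of VEGFB and NRP2 overlapped between groups. Which FLT1 transcripts encode the soluble form is not given in the table.

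Patterns over the 12 libraries were compared by Pearson's r of log2 CPM with 10419 other genes, as a description in which all pairs share the same 12 libraries and 3 groups. Most alike to VEGFA were PLAGL2 (r = 0.99), MFN2 and STAU2 (both 0.98), and to VEGFB were INO80B (0.99), SSR2 and CACFD1 (both 0.98). VEGFC was closest to PLOD1 (0.90), HECW2 and TUBA1A (both 0.89). KDR was closest to RBL1 (0.96), TCAIM and DYSF (both 0.95), and FLT1 to TNPO2, ADGRF2 and PIEZO2 (all 0.97). For FLT4 they were CYHR1 (0.94), CCL21 (0.88) and COQ3 (0.87), for NRP1 BMP1 (0.97), AHI1 and SYT4 (both 0.96), and for NRP2 ATP1B2 (0.92), DMPK (0.91) and CEP192 (0.89).

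Of 6 further growth factor genes tested, PDGFC rose at 4 h, PDGFC and PGF rose at 12 h, and PDGFD and VEGFD fell at 12 h, beside 14.2% and 48.9% of all genes called. PGF, here the gene of placental growth factor, an FLT1 ligand and not the prostaglandin, was at 1.38 to 3.70 TPM in controls, 1.93 to 4.25 TPM at 4 h and 2.38 to 6.22 TPM at 12 h. The groups overlapped, and its log2 change of 1.08 at 12 h (SE 0.39, adjusted p = 0.0347) was not called in 10 of 23 alternatives, among them leaving out cow6314 (0.77, adjusted p = 0.109), cow7514 (0.96, adjusted p = 0.0867), cow7367 (0.98, adjusted p = 0.0858), cow6464 (1.04, adjusted p = 0.0687) or cow7475 (1.12, adjusted p = 0.0530). VEGFD, like VEGFC a ligand of FLT4, was low throughout, with 25 to 45 counts per control cow, 4 to 19 at 4 h and 2 to 8 at 12 h. Its log2 change was -1.55 (SE 0.50, adjusted p = 0.0582) at 4 h and -2.33 (SE 0.55, adjusted p = 0.00384) at 12 h. PDGFD, a platelet-derived growth factor that acts on pericytes, went from 41.7 ± 3.45 TPM in controls to 11.9 ± 2.83 TPM at 12 h (log2 change -1.49, SE 0.16, adjusted p = 2.44e-05).

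The neuropilins are also receptors for class 3 semaphorins, acting with plexins. Of 12 such genes SEMA3G rose and PLXNA2 fell at 4 h (14.2% of all genes called). At 12 h 8 fell and none rose (25.3% of all genes fell), with a median change of -1.06. PLXNA2 was at 125 ± 31.5 TPM in controls, 55.1 ± 8.60 TPM at 4 h and 21.3 ± 3.93 TPM at 12 h (log2 change -2.26 at 12 h, SE 0.18, adjusted p = 6.42e-06). PLXNA1 fell from 27.6 ± 4.60 to 6.66 ± 1.13 TPM (-1.75, SE 0.23, adjusted p = 9.83e-05) and SEMA3D from 9.64 ± 1.80 to 2.82 ± 0.983 TPM (-1.43, SE 0.23, adjusted p = 3.23e-04) between control and 12 h. PLXNA4 fell too, with a log2 change of -2.84 (SE 0.40, adjusted p = 1.32e-04), to 0.203 TPM.

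Of 28 tested genes that carry the receptor signal inside the cell, 7 rose and GIPC1 fell at 4 h, where 14.2% of all genes were called. At 12 h 8 rose and 7 fell, a share near the 48.9% of all genes, with median changes of 0.11 and 0.05. NOS3, the endothelial nitric oxide synthase, rose from 18.1 ± 2.84 TPM in controls to 42.6 ± 3.51 TPM at 4 h (log2 change 1.17, SE 0.12, adjusted p = 6.84e-05), and its value at 12 h was 0.81 (SE 0.12, adjusted p = 1.57e-04). The kinase genes FYN (0.94, SE 0.12, adjusted p = 3.11e-04) and MAPKAPK2 (0.63, SE 0.09, adjusted p = 8.36e-04) also rose at 4 h, when KDR and FLT1 were already lower. RASA1, which restrains Ras, fell at 12 h (-0.95, SE 0.13, adjusted p = 1.29e-04).

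Of 15 genes known to respond to VEGF in endothelial cells, 6 rose and none fell at 4 h (8.65% of all genes rose), and 3 rose and 3 fell at 12 h (48.9% of all genes called). CXCR4 (adjusted p = 0.0326), F3 and PLAU (adjusted p = 0.0498) were those that rose at 12 h. APLN (log2 change -2.70, adjusted p = 0.00683), ESM1 (-1.47, adjusted p = 0.0311) and KCNE3 (-1.31, adjusted p = 0.00981) fell at 12 h. Control and 12 h cows overlapped for CXCR4, PLAU and ESM1. DUSP5, a phosphatase of ERK, went from 3.75 ± 0.737 TPM in controls to 85.7 ± 26.6 TPM at 4 h (log2 change 4.55, SE 0.32, adjusted p = 8.50e-06) and was at 4.41 ± 1.09 TPM at 12 h. EGR3, an immediate early transcription factor, rose by 3.37 (SE 0.46, adjusted p = 6.32e-04) and ADAMTS1, a protease that binds VEGFA, by 0.92 (SE 0.15, adjusted p = 0.00173) on the log2 scale at 4 h. F3, tissue factor, rose at both times, by 2.68 (SE 0.41, adjusted p = 0.00133) at 4 h and 2.87 (SE 0.42, adjusted p = 1.67e-04) at 12 h. These genes respond to many other signals in many cell types.

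Among 15 tested regulators of VEGF gene transcription, EGLN1 and GATA2 rose at 4 h, and 3 rose and 5 fell at 12 h, shares near those of all genes (14.2% and 48.9% called). Those that rose at 12 h were EGLN1, ERG and GATA2, and those that fell were ARNT, ETS1, SP1, STAT3 and VHL. ARNT, the partner of the hypoxia-inducible factors, fell at 12 h from 27.7 ± 0.801 to 12.6 ± 2.64 TPM (log2 change -0.89, SE 0.11, adjusted p = 7.54e-05). SP1 (-0.81, SE 0.13, adjusted p = 2.76e-04) and ETS1 (-1.61, SE 0.21, adjusted p = 7.85e-05), an activator of endothelial genes, fell with it. STAT3 was lower at 12 h than in controls (-0.65, SE 0.13, adjusted p = 0.00160). It also fell from 4 h to 12 h (-1.0, SE 0.13, adjusted p = 1.15e-04). HIF1A was called in neither comparison with control and fell from 4 h to 12 h.

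Of 14 tested genes of matrix proteins, secreted proteases and inhibitors that act around VEGF outside the cell, THBS2 rose at 4 h, and 6 rose and 2 fell at 12 h (48.9% of all genes called), with a median change of 0.77 at 12 h. HSPG2 and PAPPA were the 2 that fell. THBS2, an inhibitor of vessel growth, was at 161 ± 75.9 TPM in controls, 552 ± 195 TPM at 4 h and 426 ± 26.5 TPM at 12 h (log2 changes 1.81, SE 0.31, adjusted p = 0.00258, and 1.71, SE 0.31, adjusted p = 7.15e-04). CCN2, which binds VEGFA, rose at 12 h (2.20, SE 0.38, adjusted p = 5.18e-04), as did the matrix protease MMP14 (1.65, SE 0.18, adjusted p = 2.59e-05). PAPPA, another secreted protease, fell from 13.5 ± 5.18 to 1.96 ± 0.485 TPM between control and 12 h (-2.47, SE 0.42, adjusted p = 4.68e-04).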

How the data were processed

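Per the submitters' processing notes, the authors used STAR 2.5, RSEM 1.3 and the genome build ARS-UCD1.2. The authors deposited 1 table per cow with an expected count for each gene, which is RSEM's estimate of its reads and need not be whole. The same tables hold the TPM, the FPKM and the transcript length that RSEM gave, as deposited by the authors, and FPKM was not used. The RNA was isolated with Trizol, and strand is not given in the sources used here, so reads of overlapping antisense genes cannot be told apart. Expected counts were rounded, and a gene was tested where 4 or more libraries reached 10 counts (14481 genes). These were scaled by TMM and fitted with edgeR 4.0.16 (quasi-likelihood test, all 3 groups in 1 fit), with Benjamini-Hochberg adjustment over all tested genes and a threshold of 0.05. Every adjusted p of a fold change is from this fit unless another tool is named. The SE of a fold change was derived as its absolute log2 value divided by the square root of the F statistic of this test. Log2 CPM used a prior count of 2. Ratios, endothelial differences and transcript lengths were compared by exact two-sided permutation tests, adjusted within families of 15 and 12 tests. The test was coded with numpy and checked against scipy 1.17.1 on made-up values.

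The 8 genes and all gene lists were chosen with earlier results of these data known. The text names all 8, up to 4 genes of each list with the smallest p in any comparison, any gene that a count of 5 or fewer refers to, and the 3 most alike to each of the 8 among tested genes with a symbol and a mean of at least 5 CPM. GIPC1, SEMA3G, HIF1A, OXT, RELN and some other markers were named after their values were seen. Names on the lists that matched no row were left out.

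The alternatives were DESeq2 1.42.0, RLE scaling, a count minimum of 50 or none, fits restricted to the pair of groups compared, limma 3.58.1 on log2(TPM + 1) and log2(TPM + 0.1), no mitochondrially encoded genes, an offset that removes the trend of each library with transcript length (a spline, 5 degrees of freedom), each cow left out in turn, and cow6455 and cow6314 left out together. Leaving out cow6455 and cow7514 together was added after seeing the data. The edgeR, DESeq2 and limma fits were tested on simulated data. Tables were handled in Python 3.11.15 (numpy 2.4.6, pandas 2.3.3), figures drawn with matplotlib 3.10.9 and models fitted in R 4.3.3. Each of the 8 genes had at least 78 counts in every library, and the SEs cover counting error and the spread between cows.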

Additional observations from a re-analysis of the deposited data

Results flagged for a closer look

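In 3 of 51 groups of 4 cows tested, 1 cow stood far from the other 3 by Dixon's criterion, which chance alone meets in about 1 of 20 groups. These were FLT1 in 12 h cow6314, at 10.06 TPM beside 6.10 to 6.29 TPM in the other 12 h cows, FLT4 in control cow7514, at 19.29 TPM beside 6.83 to 7.75 TPM, and the mean transcript length of VEGFA in 12 h cow7475, at 2710 bases beside 2645 to 2648 bases. Cow6314 also had the highest mean of the endothelial markers, 6.75 log2 CPM, and cow7514 had the second highest mean of the lymphatic markers, 5.38 log2 CPM. With 1 cow left out in turn, the log2 change at 12 h ranged from -1.73 to -1.54 for FLT1 and from -1.66 to -0.72 for FLT4. The part of these marker levels in the values was not tested.

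The response to PGF2α differed between 4 h and 12 h, by a direct test of 12 h against 4 h, for 5 of the 8 genes. The log2 fold changes were -2.17 for VEGFA, 1.0 for VEGFB, -1.02 for FLT1, -0.79 for NRP1 and -0.98 for NRP2 in edgeR. In exact permutation tests, 12 h also differed from 4 h by -1.96 in the log2 TPM ratio of VEGFA to KDR, by -0.88 in that of FLT1 to KDR, by -0.44 in KDR minus the endothelial markers and by -1.20 in FLT1 minus the endothelial markers.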

How the results depend on the processing

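Under 23 alternatives the number of the 8 genes called was 1 to 4 at 4 h (3 as reported), 6 to 7 at 12 h (7) and 5 to 7 from 4 h to 12 h (5), and with 1 cow left out 2 to 3, 6 to 7 and 5 to 6. The count of 1 at 4 h, KDR alone, came without cow6455 and cow7514. VEGFA, VEGFB, VEGFC, KDR and FLT1 at 12 h and KDR at 4 h kept their call in all 23. Their log2 fold changes at 12 h ranged from -3.33 to -2.82 for VEGFA, from 0.62 to 1.06 for VEGFB, from -0.93 to -0.51 for VEGFC, from -1.45 to -0.69 for KDR and from -2.15 to -1.37 for FLT1. Calls of the 8 genes that were lost are given beside the genes in the report. KDR and VEGFC from 4 h to 12 h were called by limma on log2(TPM + 1) (adjusted p = 0.0181 and 0.0309). NRP1 at 4 h was called without cow6455 and cow6314 (0.40, adjusted p = 0.0339). KDR minus the endothelial markers from 4 h to 12 h was -0.042 with the marker median.

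Some uncalled values changed sign. With 1 cow left out, VEGFB at 4 h ranged from -0.19 to 0.055, FLT4 at 4 h from -1.50 to 0.16, FLT4 from 4 h to 12 h from -1.34 to 0.27, and NRP2 at 4 h from -0.11 to 0.34. Without cow6455 and cow6314, FLT4 from 4 h to 12 h was 0.57 and NRP2 at 4 h -0.10. Without cow6455 and cow7514 these were 0.27 and -0.029. KDR from 4 h to 12 h was 0.28 with the length offset. The causes were not tested. Among the gene lists, 262 counts under the alternatives moved by over 1.5 times and 2084 did not. Fold changes were followed for only some of the listed genes, and each was counted once per alternative. Of these counts, 172 lost their call, 11 gained one and 2363 kept their side, and none changed direction. The other listed genes were not followed in this way.

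Over all genes, limma on log2(TPM + 1) called 1509 higher and 5631 lower at 12 h, where edgeR called 3417 and 3665, and from 4 h to 12 h 1304 and 5194, where edgeR called 3252 and 3512. The number of genes that fell at 4 h was 809, and 524 with only the groups compared, 316 without cow6455 and cow7514 and 374 to 797 with 1 cow left out. Exact tests with 1 cow left out were read as values only. No paired analysis was possible because the labels give each cow an identity and no number shared between groups.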
